A study of Mus musculus with 9 samples.

Results

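Gene deserts, stretches of the genome far from any protein-coding gene, held 1044 of the 12845 autosomal differentially methylated regions (DMRs) listed for the hypothalamus of mice after modified maternal separation (MMS). A DMR was placed here when it lay more than 200 kb, edge to edge, from every protein-coding gene of the GENCODE vM21 annotation and when its centre lay in no long non-coding RNA (lncRNA) gene. The choice used position alone and no measured value. Of the 1044 DMRs, 736 had the higher mean in MMS and 308 had the higher mean in control, a share of 70.5% in MMS against 62.4% over all autosomal DMRs.

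The mice were C57/Bl6 male pups. In the MMS group pups spent 1.5 h of each day, starting on postnatal day 4, away from the dam on a heating pad beside the home cage, and were turned onto the back. Controls were littermates, and the hypothalamus of both groups was collected on postnatal day 6. DNA of 10 animals per group was combined into 3 pools per group for methylated DNA immunoprecipitation sequencing (meDIP-seq), so a library holds several animals. In this method an antibody that binds methylated cytosine pulls down DNA fragments, and reads over a region depend on its methylation and on how many CpG sites it holds. The deposited table gives, for each DMR, the log2 mean of normalised reads in control and in MMS, with no value per pool. Therefore no spread between pools and no test between groups could be computed here, the depth behind each value is not given in the table, and every count below is a description of a list that the authors had already restricted to regions past their own threshold. Tissue as a whole was measured, so a change of methylation within cells and a change in the makeup of cell types cannot be told apart.

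Deserts are poor in CpG and rich in repeats, and most of their CpG sites are methylated in differentiated tissue. Some deserts hold distant enhancers that control developmental regulators at their borders, and others have no known role. The nearest gene is given below as a landmark, and no regulation of it by the region was measured.

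Sequences of 9 gene desert DMRs are shown to give an idea of the DNA behind the values. They stand for the largest differences in each direction, the best covered regions, a remote region, the most CpG-dense and the widest region. Each line gives the 200 bases of the DMR with the most CpG sites, or the whole DMR where it is shorter, read 5′ to 3′ on the plus strand of GRCm38 (mm10) from the reference genome, with each CpG in capitals. The window near Ajap1 is chr4:153126835-153127034 and that near Nkx6-1 is chr5:101366214-101366413, and both DMRs had the control mean at its lowest value. The window near Stmn2 is chr3:8245379-8245578 and the whole DMR near Khdrbs2 is chr1:31739404-31739596, and both had the MMS mean at its lowest value. Read well in both groups were the windows near Slc10a2, chr8:5535709-5535908, and near Gm12887, chr4:122035024-122035223. The window near Pcdh9, chr14:90863412-90863611, lies over 1000 kb from any protein-coding gene, the DMR near Unc5d, chr8:29909904-29910064, is the densest in CpG, and the window near Suds3, chr5:116851592-116851791, comes from the widest DMR.
Ajap1: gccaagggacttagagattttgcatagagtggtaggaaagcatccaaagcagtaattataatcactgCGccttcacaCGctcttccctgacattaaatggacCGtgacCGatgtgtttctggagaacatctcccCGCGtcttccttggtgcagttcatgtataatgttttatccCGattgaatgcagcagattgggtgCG
Nkx6-1: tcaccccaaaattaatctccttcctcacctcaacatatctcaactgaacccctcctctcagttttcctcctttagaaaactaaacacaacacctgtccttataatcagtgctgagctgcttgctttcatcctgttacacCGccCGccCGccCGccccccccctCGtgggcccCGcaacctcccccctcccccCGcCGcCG
Stmn2: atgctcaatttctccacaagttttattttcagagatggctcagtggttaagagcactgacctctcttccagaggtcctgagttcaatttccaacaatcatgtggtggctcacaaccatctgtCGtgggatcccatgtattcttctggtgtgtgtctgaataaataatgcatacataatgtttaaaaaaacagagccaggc
Khdrbs2: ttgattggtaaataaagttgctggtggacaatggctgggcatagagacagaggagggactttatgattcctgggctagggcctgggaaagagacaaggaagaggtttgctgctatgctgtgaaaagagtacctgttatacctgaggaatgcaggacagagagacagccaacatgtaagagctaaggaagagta
Slc10a2: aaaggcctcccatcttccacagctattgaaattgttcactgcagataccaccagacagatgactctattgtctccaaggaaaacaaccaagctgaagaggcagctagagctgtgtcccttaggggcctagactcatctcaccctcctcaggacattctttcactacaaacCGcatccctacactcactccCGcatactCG
Gm12887: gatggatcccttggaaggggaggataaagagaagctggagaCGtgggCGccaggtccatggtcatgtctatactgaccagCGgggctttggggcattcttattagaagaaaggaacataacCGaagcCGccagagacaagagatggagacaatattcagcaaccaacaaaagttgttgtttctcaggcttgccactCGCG
Pcdh9: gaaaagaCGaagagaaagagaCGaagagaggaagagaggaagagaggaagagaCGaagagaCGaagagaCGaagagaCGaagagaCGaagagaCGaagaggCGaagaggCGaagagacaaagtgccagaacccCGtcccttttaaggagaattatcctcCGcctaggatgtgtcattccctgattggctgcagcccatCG
Unc5d: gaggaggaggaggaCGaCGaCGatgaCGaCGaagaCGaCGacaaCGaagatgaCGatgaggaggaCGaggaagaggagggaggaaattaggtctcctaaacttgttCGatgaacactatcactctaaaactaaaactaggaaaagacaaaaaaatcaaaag
Suds3: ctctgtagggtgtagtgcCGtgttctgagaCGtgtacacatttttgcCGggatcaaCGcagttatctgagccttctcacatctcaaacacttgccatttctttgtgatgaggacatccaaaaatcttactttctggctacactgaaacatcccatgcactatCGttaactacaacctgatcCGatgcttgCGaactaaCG

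The sequences differed widely in CpG. The window near Pcdh9 held 13 CpG sites, most of them in a row of purine-rich repeats, and the 161 bases near Unc5d held 11, most of them within a run of similar triplets. By contrast, the window near Stmn2 held 1 CpG and the 193 bases near Khdrbs2 held 0, although these regions had the largest differences toward control.

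Gene desert DMRs showed large differences from low means. In the 736 DMRs with the higher mean in MMS, the median log2 mean was 3.90 in MMS (15.0 normalised reads) and -0.17 in control (0.889 reads). In the 308 DMRs with the higher mean in control, it was 4.95 in control (30.9 reads) and 2.92 in MMS (7.57 reads). Over all autosomal DMRs the corresponding medians were 4.10 and 0.20 for those higher in MMS (17.1 and 1.15 reads), and 5.13 and 3.34 for those higher in control (35.0 and 10.1 reads). Desert DMRs thus had lower medians in both groups and both directions.

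As a log2 difference (MMS minus control), the median was 3.14 in gene deserts and 2.41 over all autosomal DMRs. Among the 601 desert DMRs whose higher group had a log2 mean of at least 4, it was 1.59, with no value computed for other DMRs under that limit. Within a direction the medians lay closer, at 3.51 against 3.43 for DMRs higher in MMS and at -1.94 against -1.73 for those higher in control. Differences in deserts ranged from -8.19 to 6.21. A difference above 4 was seen in 174 (16.7%, against 14.9% over all) and one below -4 in 20 (1.92%, against 1.67%).

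**Figure D1:**
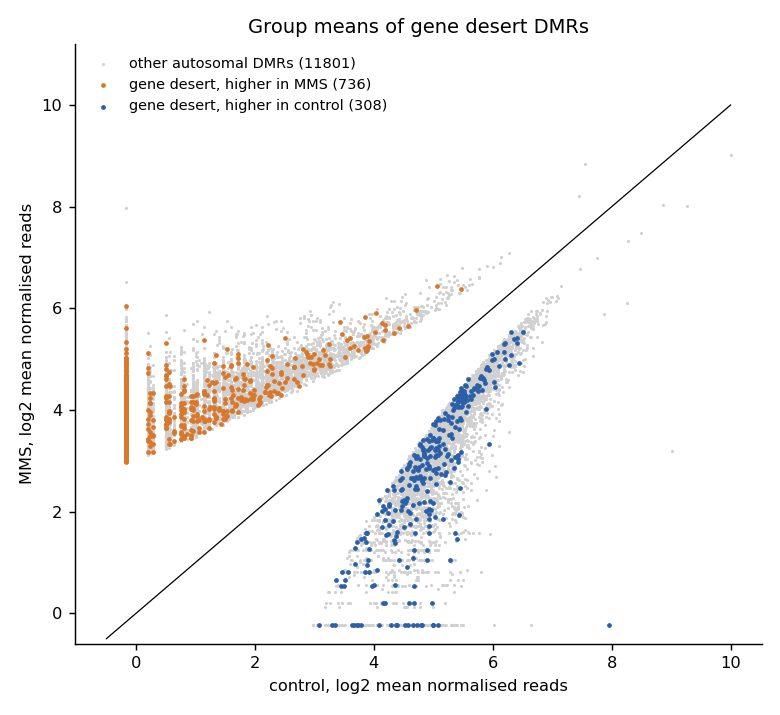
Group means of DMRs, with the log2 mean of normalised reads in control on the x axis and in MMS on the y axis. Each point is 1 DMR: grey points are other autosomal DMRs, orange points are gene desert DMRs higher in MMS and blue points those higher in control. The column of orange points at the left is the 456 desert DMRs whose control mean was within 0.5 of its lowest value, and the empty band along the diagonal reflects that only regions past the authors' threshold are listed.

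The lowest value of the column of means was -0.17 in control and -0.24 in MMS. A difference against such a value depends on where that lowest value was set. The methods describe normalisation to the input of each group and subtraction of the IgG control, and whether a lowest value reflects few reads or these steps was not tested. In gene deserts the control mean was within 0.5 of its lowest value in 456 DMRs (43.7%), against 32.8% of all autosomal DMRs. Among the 601 desert DMRs whose higher group had a log2 mean of at least 4, it was so in 20.3%. No such share was computed for other DMRs under that limit. These 456 made up 62.0% of the desert DMRs higher in MMS, against 52.6% of all autosomal DMRs higher in MMS. The MMS mean was within 0.5 of its lowest value in 27 desert DMRs (2.59%, against 1.74% over all), which made up 8.77% of those higher in control, against 4.61%.

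The share of DMRs higher in MMS was 70.5% in gene deserts (95% Wilson interval 67.7 to 73.2), 61.8% among DMRs touching a protein-coding gene (60.6 to 63.0) and 61.5% among intergenic DMRs within 200 kb of one (60.1 to 62.9). The last group leaves out DMRs with their centre in a lncRNA gene. These intervals treat DMRs as independent draws and cover counting error only, not the spread between pools. The share higher in control was 29.5% in deserts against 37.6% over all autosomal DMRs. In 17 of the 19 autosomes the share in MMS was larger in deserts than in the rest of that chromosome, the others being chromosomes 4 and 16. Desert shares ranged from 61.2% on chromosome 4 to 81.5% on chromosome 17, with 17 to 91 desert DMRs per chromosome, and other shares from 58.9% to 65.4%.

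The direction moved with the read level. Among desert DMRs whose higher group had a log2 mean between 3 and 3.5, 96.7% were higher in MMS, and above 5.5 this was 21.9%. Other autosomal DMRs went from 96.8% to 19.5% over the same range. Within the 6 bins of read level the desert share was above the other share in 2 and below it in 4. When the other DMRs were weighted to the read levels of the desert DMRs, 71.9% of them were higher in MMS, against 70.5% in deserts. The level used here is the MMS mean for DMRs higher in MMS and the control mean for the others, so it is not independent of the direction, and the weighted share is a description that does not adjust for read level. Without weighting, 53.4% of the 601 desert DMRs with a higher group mean of at least 4 were higher in MMS, against 48.4% of such DMRs elsewhere. Weighting by CpG content, width or soft-masked share left the other DMRs at 63.7%, 61.8% and 62.3%. Whether the read level sets the direction, or the reverse, was not tested.

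**Figure D2:**
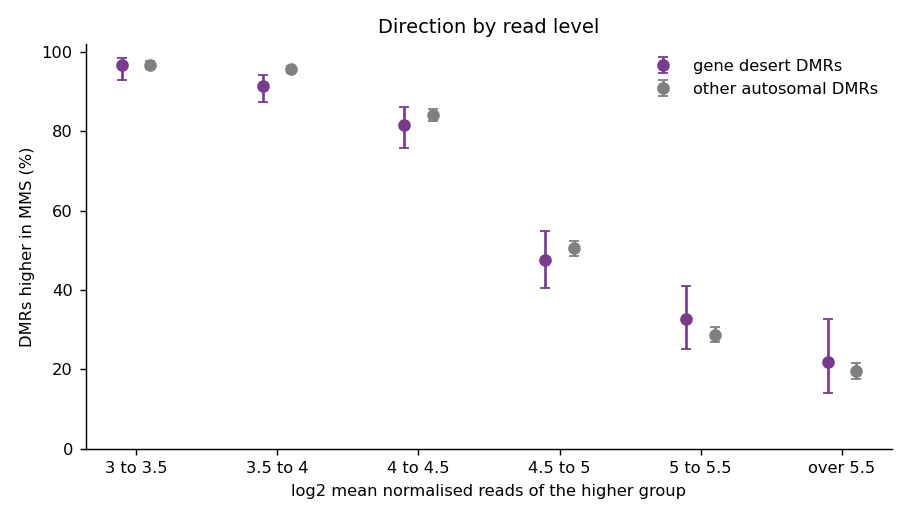
Share of DMRs higher in MMS (y axis, percent) by the log2 mean of normalised reads in the higher group (x axis, bins), for gene desert DMRs in purple and other autosomal DMRs in grey, with 95% Wilson intervals. Both sets go from 96.7% and 96.8% in the lowest bin to 21.9% and 19.5% in the highest, and the 2 intervals overlap in each bin except 3.5 to 4, where deserts had 91.5% (87.4 to 94.3) and other DMRs 95.8% (94.8 to 96.5).

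DMRs were sparser in deserts. Gene desert sequence made up 424 Mb, or 17.7% of the autosomal sequence, and held 8.13% of the DMRs. This gave 2.46 DMRs per Mb against 5.99 in the other autosomal sequence. For DMRs higher in MMS the densities were 1.74 and 3.69 per Mb, and for those higher in control 0.726 and 2.30. Part of this gap moved with CpG: desert sequence held 0.559 CpG per 100 bp and other sequence 0.913. Per 100000 CpG sites, deserts had 44.0 DMRs and other sequence 65.5.

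Outside protein-coding genes, lncRNA gene bodies and DMRs with their centre in one were left out of the distance bins. The density fell with distance from genes. It was 6.42 DMRs per Mb within protein-coding genes, 4.12 at 100 to 200 kb, 3.56 at 200 to 300 kb, 2.69 at 300 to 500 kb, 1.80 at 500 to 1000 kb and 1.44 beyond 1000 kb. Per 100000 CpG sites it was 64.2 in genes, 68.5 up to 50 kb away, 67.6 at 50 to 100 kb, 59.9 at 100 to 200 kb, 55.9 at 200 to 300 kb, 46.5 at 300 to 500 kb, 35.2 at 500 to 1000 kb and 29.8 beyond 1000 kb. Per CpG site the density was therefore no lower up to 100 kb than in genes, and was lower in each bin beyond. The share higher in MMS was 63.3% at 100 to 200 kb, 68.9% at 200 to 300 kb, 71.9% at 300 to 500 kb, 70.4% at 500 to 1000 kb and 72.4% beyond 1000 kb (n = 87, Wilson 62.2 to 80.7). Just inside the limit, at 200 to 210 kb, 36 of 50 DMRs were higher in MMS, with a median width of 418 bp. Just outside it, at 190 to 200 kb, this was 22 of 36, with a median width of 490 bp.

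**Figure D3:**
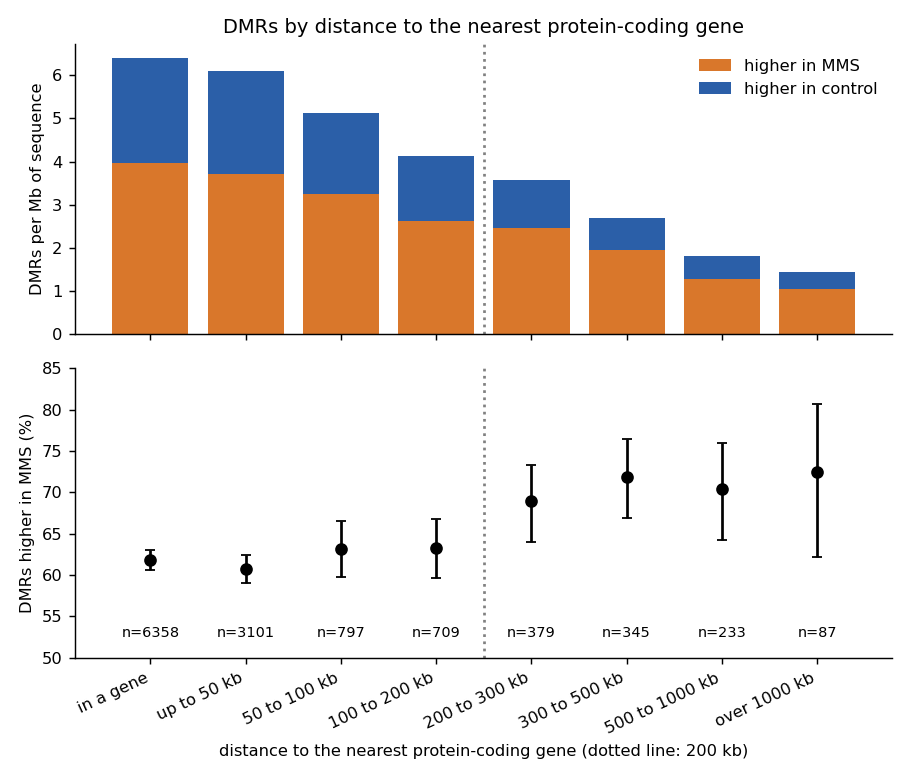
DMRs by distance to the nearest protein-coding gene (x axis, bins, with the 200 kb limit dotted). Outside protein-coding genes, DMRs with their centre in a lncRNA gene are left out. The upper panel stacks the DMRs per Mb of sequence higher in MMS (orange) and in control (blue), which together go from 6.42 in genes to 1.44 beyond 1000 kb, and the lower panel gives the share higher in MMS in percent with 95% Wilson intervals, from 61.8% in genes to 72.4% beyond 1000 kb.

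Gene desert DMRs were short and poor in CpG. The median width was 436 bp (quartiles 240 and 742, range 146 to 3578), against 553 bp for other autosomal DMRs. A width under 300 bp was found in 36.5%, against 27.7% of all autosomal DMRs. They held a median of 4 CpG sites, against 7 over all, and 1.03 CpG per 100 bp, against 1.32. That was still above the 0.559 of desert sequence as a whole. DMRs higher in MMS were poorer in CpG than those higher in control, with medians of 0.972 and 1.15 per 100 bp, and the same order was found among other autosomal DMRs (1.29 and 1.45).

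No CpG at all was present in 52 desert DMRs (4.98%, against 2.40% over all), and 46 of these were higher in MMS (88.5%, against 70.1% of the 308 autosomal DMRs without CpG). Methylation in mammals lies mostly at CpG, although neurons also carry it elsewhere. Whether the antibody signal in these 52 came from other cytosines, from CpG sites just outside the region or from neither was not tested. More than 5 CpG per 100 bp were found in 6 of the 1044 desert DMRs and in 31 of the 12845 autosomal DMRs.

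Repeats were common. The median soft-masked share, the part of a DMR marked as repeat in the reference, was 30.0% in deserts and 20.6% over all autosomal DMRs, and 334 desert DMRs (32.0%, against 17.3%) were masked over more than 50% of their length. Desert sequence as a whole was masked at 40.4%. In 114 DMRs (10.9%, against 7.04%) at least 1 stretch of 100 bases occurred elsewhere in the reference, and how reads were placed there was not examined. Among the 930 without such a stretch, 71.1% were higher in MMS. A CA run of at least 10 units was found in 63 (6.03%, against 7.57%).

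**Figure D4:**
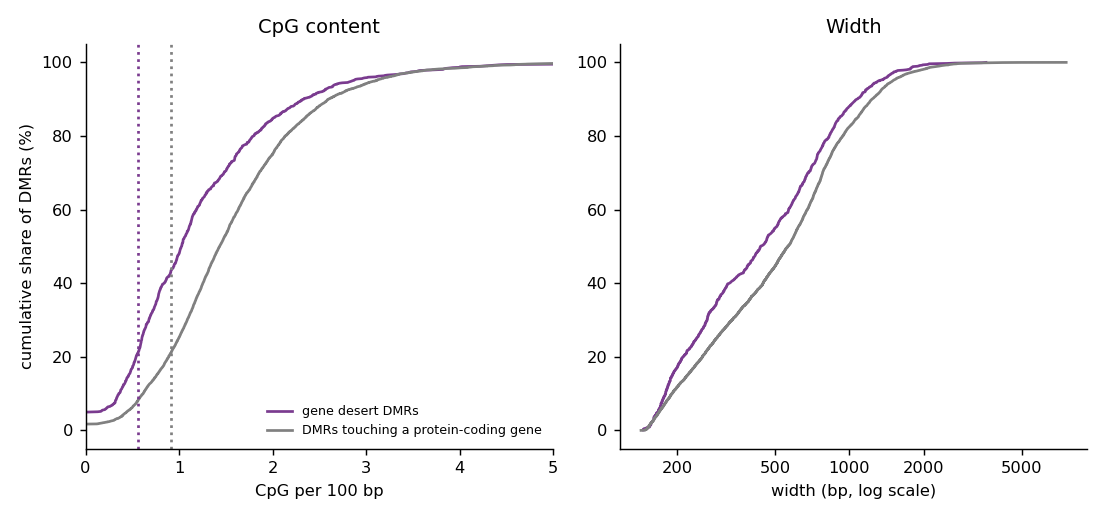
Cumulative share of DMRs (y axis, percent) by CpG per 100 bp (left) and by width in bp on a log scale (right), for gene desert DMRs in purple and DMRs touching a protein-coding gene in grey. Desert DMRs lie to the left in both panels, with medians of 1.03 against 1.43 CpG per 100 bp and 436 against 563 bp, and the dotted lines mark the mean CpG of desert sequence (0.559) and of other autosomal sequence (0.913).

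Short motifs were looked for on both strands in the 201 bp around the centre of each DMR. The E-box CACGTG was found in 3.35% of desert windows and 4.09% of all autosomal windows, the Sp and KLF box GGGCGG in 3.45% and 3.67%, and the homeodomain core TAATTA in 3.54% and 3.57%. The AP-1 element TGANTCA, bound by FOS and JUN, was found in 4.79% and 5.05%, and the cAMP response element TGACGTCA in 1 desert window (0.0958%, against 0.195%). The sequence AGAACA, an arm of the palindrome bound by the glucocorticoid receptor, was found in 203 desert windows (19.4%, against 17.4% over all). It was present in 80 of the 308 desert DMRs higher in control (26.0%) and in 123 of the 736 higher in MMS (16.7%), and in 17.6% and 17.0% of other autosomal DMRs. The AP-1 element was present in 21 of those higher in control (6.82%) and 29 of those higher in MMS (3.94%), against 5.12% and 5.05% of other autosomal DMRs. In the same order the desert shares were 2.92% and 3.53% for the E-box, 2.60% and 3.80% for the Sp and KLF box and 3.90% and 3.40% for the homeodomain core. CACGTG and TGACGTCA hold a CpG, and GGGCGG as well, and none of the motifs holds another of the list other than CpG. A match is not evidence of binding, and no difference between these shares was tested.

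Choosing by size favours regions at a lowest value in either group. The largest differences toward MMS all started from the lowest control value, -0.17. The largest lay 245 kb from Ajap1, a membrane protein of adherens junctions, at chr4:153126767-153128279, with a log2 mean of 6.04 in MMS (65.8 reads) over 1513 bp and 35 CpG sites. The next lay 291 kb from Nkx6-1, a homeodomain transcription factor of neural and pancreatic development, at chr5:101366040-101367170, with 5.62 in MMS (49.2 reads) and 26 CpG sites. Both were wider and richer in CpG than the desert median. A region 367 kb from Arid1b, a subunit of a chromatin remodelling complex, reached 5.33 in MMS at chr17:4625641-4627091. Of its stretches of 100 bases, 3.48% occurred elsewhere in the reference, with up to 140 copies. The region near Arid1b was followed by 5.19 at chr14:98596862-98597060, near Rpl36a-ps1 and in the desert beside Dach1, and by 5.13 at chr8:52872260-52873440, near Aga, a lysosomal enzyme.

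The largest differences toward control all ended at the lowest MMS value, -0.24. A region 263 kb from Stmn2, a regulator of microtubules in neurons, had a log2 mean of 7.95 in control (247 reads) at chr3:8245379-8246388, and this mean was the highest control mean of any gene desert DMR. Its difference of -8.19 stands apart from the next, -5.32, at the CpG-free region near Khdrbs2, an RNA-binding protein, with 5.08 in control. Regions near Pabpc4l, chr3:47348621-47349225, and near Auts2, chr5:133146938-133147567, both had 4.99 in control. The fifth, with 4.81 in control at chr12:114186375-114186543, lay near Adam6a within the immunoglobulin heavy chain locus, whose gene segments are not counted as protein-coding genes in the annotation. Within 200 kb of an immunoglobulin or T cell receptor gene segment lay 9 of the desert DMRs, 6 of them higher in MMS.

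Regions read well in both groups, chosen for the highest mean in the lower group, had smaller differences, which that choice favours. Among those higher in MMS, the best covered lay near Slc10a2, a bile acid transporter, with 5.47 in control and 6.37 in MMS (44.3 and 82.7 reads). A region near the adhesion molecule Sdk2 had 5.06 and 6.43, and a region near Reep3, which shapes the endoplasmic reticulum, had 4.71 and 5.97. Among those higher in control, a region near Gm12887 had 6.50 in control and 5.54 in MMS (90.5 and 46.5 reads). A region near Slc16a7, a monocarboxylate transporter, had 6.31 and 5.54, and a region near Adra2a, an adrenergic receptor, had 6.40 and 5.41. Their differences, from -0.99 to 1.37, do not depend on the lowest value.

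The most CpG-dense desert DMRs lay near Unc5d, a netrin receptor (6.83 per 100 bp, 5.02 in control and 2.83 in MMS), near Khdrbs3, an RNA-binding protein (6.49, 5.25 and 3.81), and near the splicing factor Rbfox1 (5.77, -0.17 and 2.99). The region near Khdrbs3 overlaps the processed pseudogene Gm7859, while the other regions named for their size, coverage, CpG or width touch no annotated gene. The widest lay near Suds3, a subunit of a histone deacetylase complex (3578 bp, 6.44 in control and 4.92 in MMS), near the RNA helicase Ddx18 (3443 bp, 4.02 and 5.53) and near Slc16a7 (2667 bp). Of the stretches of 100 bases, 4.91% near Rbfox1 and 0.517% near Suds3 occurred elsewhere in the reference, and the Rbfox1 region was 98.4% soft-masked. No desert DMR touched an annotated miRNA gene.

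The median distance to the nearest protein-coding gene was 362 kb. It was over 500 kb in 320 DMRs and over 1000 kb in 87. The most remote lay 2184 kb from Celf4, an RNA-binding protein, with 5.52 in control and 4.15 in MMS, and another in the same desert, 1938 kb from the lipid kinase Pik3c3, had -0.17 and 3.31. A region 2150 kb from the protocadherin Pcdh9 had -0.17 and 3.49. In the desert beside Aga, regions 2085 kb and 2003 kb away had 3.88 and 5.18 in control and MMS, and 4.68 and 3.11. The remotest DMRs were therefore found in both directions.

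Desert sequence fell into 732 intervals between neighbouring protein-coding genes or between a gene and a chromosome end, with lncRNA gene bodies taken out of their sequence, of which 430 held a DMR, 251 held at least 2 and 50 at least 5. Of the 251, 157 held DMRs of both directions, 83 only DMRs higher in MMS and 11 only DMRs higher in control. The 70.5% of all desert DMRs higher in MMS alone favours intervals of that direction, and these counts were not tested. Of neighbouring desert DMRs less than 100 kb apart, 137 of 251 pairs (54.6%) had the same direction, and 53.2% of such pairs did elsewhere on autosomes. The shares of the 2 directions alone would give 58.4% in deserts and 52.7% elsewhere, and these gaps were not tested. Of 263 intervals with at least 500 kb of sequence, 33 held 0 DMRs.

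The interval with the most DMRs lay between Auts2, a gene of brain development, and Castor2, at chr5:132743345-133899710, with 11 DMRs, 9 of them higher in MMS. On its Castor2 side, 5 DMRs in a row were higher in MMS, with MMS means from 4.05 to 4.61 and the control mean at 2.17 in the first and at -0.17 in the others. On the Auts2 side the first 3 DMRs were higher in MMS, with 3.19, 4.91 and 4.06 in MMS and -0.17, 1.87 and -0.17 in control, and the next 3 were higher in control, MMS and control. The region chr5:133141852-133142642 had -0.17 in control and 3.88 in MMS, while chr5:133146938-133147567 close by had 4.99 in control and -0.24 in MMS. Closer to Auts2, chr5:133100729-133101467 had 5.52 and 4.19.

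The interval between the teneurin Tenm3 and Aga, on chromosome 8, spanned 4268 kb, of which 3247 kb were desert sequence, and held 10 DMRs, 8 of them higher in MMS. Its density was 3.08 per Mb of desert sequence, against 10.1 between Auts2 and Castor2. The interval between the potassium channel Kcnj2 and the transcription factor Sox9, known to hold distant Sox9 enhancers, held 10 DMRs on chromosome 11, 6 higher in MMS and 4 higher in control. Of the 7 nearest to Kcnj2, 3 had -0.17 in control and 3.78, 3.74 and 4.29 in MMS, and 1, with a control mean above the lowest, had 4.13 in MMS. The other 3 were higher in control, with 5.81, 4.90 and 4.72 in control and 4.40, 1.04 and 3.10 in MMS. On the Sox9 side, chr11:112134560-112134705 had 4.39 in control and -0.24 in MMS, and chr11:112263873-112264053 and chr11:112313155-112314027 had -0.17 in control and 3.31 and 3.48 in MMS.

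Between Snx16, which sorts membrane cargo, and the RNA-binding protein Ralyl on chromosome 3, 7 of 9 DMRs were higher in MMS. All 7 had a control mean of -0.17, with MMS means from 3.15 to 4.14. Between the kinase Vrk1 and 3110018I06Rik on chromosome 12, 9 DMRs gave a density of 10.3 per Mb, and 5 of them were higher in control. Of these 5, the 3 consecutive regions from chr12:106971476 to chr12:107021060 had 4.77, 5.40 and 5.47 in control and 3.03, 4.27 and 4.05 in MMS, values well above the lowest in both groups.

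**Figure D5:**
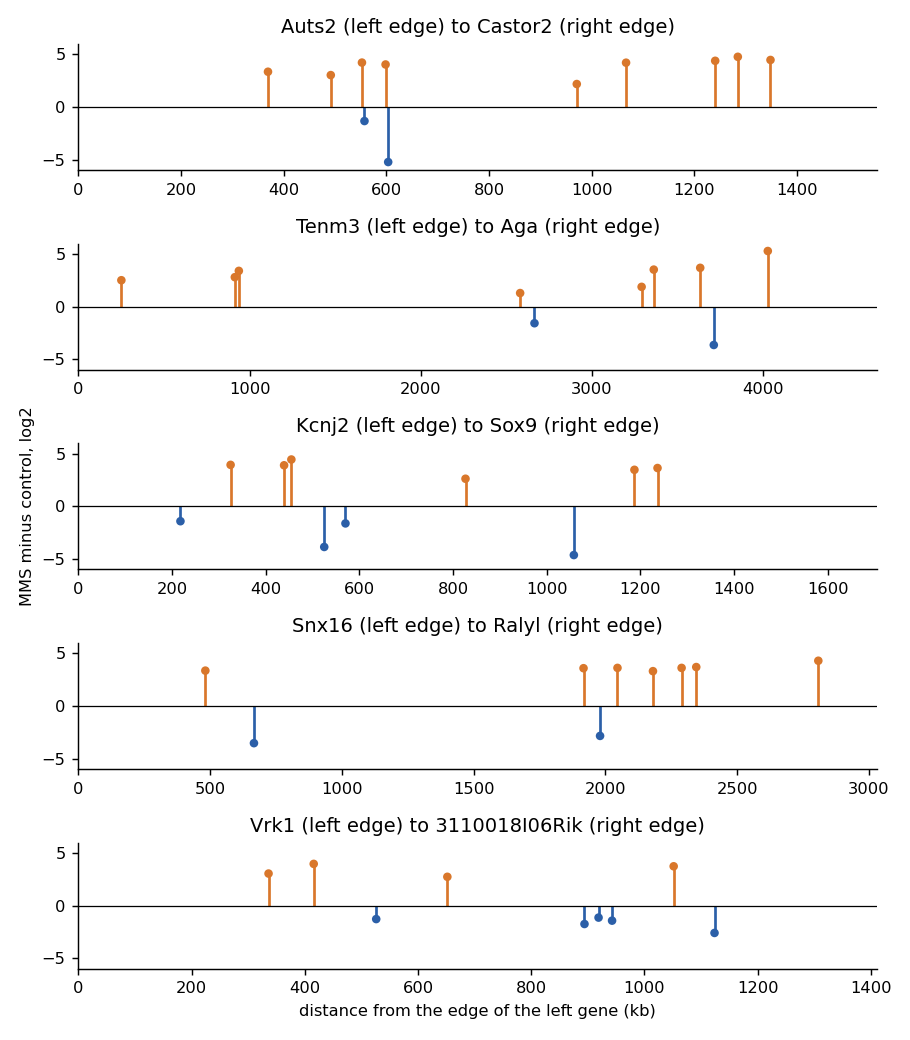
DMRs in the 5 desert intervals with the most DMRs. The x axis is the distance in kb from the edge of the left gene to the DMR and the y axis the log2 difference, MMS minus control, with orange for DMRs higher in MMS and blue for those higher in control. Each interval holds DMRs of both directions, and the interval from Auts2 to Castor2 holds 5 DMRs higher in MMS in a row on its Castor2 side.

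The 1044 DMRs had 576 different nearest genes among the 1285 that border desert sequence. For 313 genes this was 1 DMR, and for 22 genes at least 5. Aga, Kcnj2, Ralyl and the ubiquitin ligase Hace1 were each nearest to 7, of which 5, 4, 6 and 5 were higher in MMS. Auts2 was nearest to 6, of which 4 were higher in MMS. Near Hace1 the regions spread from 239 kb to 1681 kb away, with chr10:45951697-45951980 at -0.17 in control and 3.54 in MMS and chr10:46672725-46673544 at 5.07 and 3.84.

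Developmental transcription factors were nearest to 76 desert DMRs, or 7.28%, while the sequence nearest to them made up 4.26% of desert sequence. This gave 4.21 DMRs per Mb against 2.46 over all deserts, without regard to the distance or CpG content of their sequence. Of the 76, 53 were higher in MMS (69.7%, against 70.5% of all desert DMRs), with a median difference of 2.94 against 3.14. Counting both flanking genes gave 93 of 140 higher in MMS. Sall1, a zinc finger factor of kidney, limb and neural development, was nearest to 5, all higher in MMS. Their control means were 0.50 at chr8:89321824-89322625 and -0.17 at the others, and their MMS means ranged from 3.17 to 4.23. Nr2f2, an orphan nuclear receptor, was nearest to 4, also all higher in MMS, with MMS means from 3.49 to 4.33, while 1 of the 4 nearest to Sall3, another zinc finger factor, was higher in MMS, with differences of -1.33, -1.15, -1.19 and 3.97. Nr2f2 and Sall3 were chosen for mention after their values were seen.

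Cell adhesion molecules and synapse organisers, which include cadherins, protocadherins and teneurins, were nearest to 123 DMRs (11.8%) and to 15.6% of desert sequence. Their density of 1.86 per Mb was below that of all deserts, without regard to the distance or CpG content of their sequence. Higher in MMS were 85 of the 123 (69.1%, close to the 70.5% of all desert DMRs), and 147 of 206 with both flanking genes counted. The protocadherin Pcdh7 was nearest to 6, of which 3 were higher in MMS. Of its regions, chr5:56938638-56938898 had 3.66 in control and -0.24 in MMS, and chr5:59852484-59852855 had -0.17 and 3.14.

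Axon guidance genes were nearest to 25 DMRs (2.39%, against 2.87% of sequence), 15 of them higher in MMS (60.0%, against 70.5% of all desert DMRs). With both flanking genes counted, 27 of 39 were higher in MMS. Robo1, a receptor for Slit proteins, was nearest to 5, all higher in MMS. The clearest of these was chr16:71792565-71793347, with -0.17 in control, 4.69 in MMS and 12 CpG sites. All 4 DMRs nearest to Epha7, an ephrin receptor, were higher in control, with control means from 4.46 to 5.11 and MMS means from 2.04 to 3.81. Epha7 was chosen for mention after its values were seen.

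Ion channels and transmitter receptors were nearest to 34 DMRs (3.26%, against 3.14% of sequence), 28 of them higher in MMS (82.4%, against 70.5%), with Kcnj2 nearest to the most. Counting both flanking genes gave 53 of 68 higher in MMS, and neither share was tested. Olfactory and vomeronasal receptors were nearest to 2, both higher in MMS.

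Hypothalamic peptides and their receptors were nearest to 9 DMRs (0.862%, against 0.530% of sequence), all 9 higher in MMS. With both flanking genes counted there were 14, of which 11 were higher in MMS. Adcyap1, which encodes the peptide PACAP of stress and autonomic circuits, was nearest to 5. At chr17:92893299-92894587, the widest of these, the mean was 1.19 in control and 4.58 in MMS over 9 CpG sites. At chr17:92337425-92338222 it was 0.96 and 4.04, and at chr17:92855576-92855999 it was 0.92 and 3.50. The remaining 2, chr17:92381023-92381246 and chr17:93414583-93414847, had -0.17 in control and 3.73 and 3.50 in MMS. They lay 208 to 861 kb from the gene.

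The other 4 DMRs of this list were chosen for mention after their values were seen. The neuromedin U receptor Nmur2 had -0.17 and 3.58 at chr11:56417017-56417177 and 1.31 and 4.38 at chr11:56456532-56456702, regions that held 1 CpG site each. The neuropeptide S receptor Npsr1 had 2.74 and 4.48, and the galanin receptor Galr1 had -0.17 and 3.38. With 70.5% of all desert DMRs higher in MMS, and with 5 of the 9 near 1 gene, this count of 9 was not tested.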

How the data were processed

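Methylated DNA immunoprecipitation was sequenced from 3 control and 3 MMS pools. The libraries of 2 inputs and 1 IgG control were not analysed by themselves, and the labels name the methylcytosine antibody for them too. The authors sequenced on an Ion Proton, used Torrent Suite to align reads to mm10 and MACS2 to call broad peaks over inputs (version 2.1 in the submitters' processing notes, with the human genome size setting in the methods), normalised to the input of each group with subtraction of IgG, compared groups with DiffBind and DESeq2, and annotated with HOMER (4.8). The values used are the authors' deposited log2 means of normalised reads, over all libraries, control (column untreated) and MMS (column treated). The deposited fold, p-value and FDR columns hold the authors' own comparison and were not used. The methods give a range of reads per sample, but the table gives no library's depth or value and no region that missed the threshold, so nothing was tested between groups.

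Positions were compared with GENCODE vM21 genes by the difference of nearer edges, lncRNA being 8 gene types of that annotation. Sequence, CpG and soft-masking came from the GRCm38 reference. A lowest value was counted within 0.5 on the log2 scale. Shares carry 95% Wilson intervals. Distances and interval lengths were checked on simulated data. The share of 100-mers found elsewhere was exact, on both strands.

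The members, gene lists and motifs were chosen with earlier results of these data known. Named DMRs were the 5 with the largest difference and the 3 with the highest mean in the lower group in each direction, the 5 farthest, the 3 densest in CpG, the 3 widest and any touching a miRNA gene. Also named were the 5 intervals with the most DMRs, the 5 genes nearest to the most and the leading gene of each list. Ties went to the larger difference, then to chromosome order. Alternatives were other distances, lncRNA rules, chromosome ends, widths, differences, means and masking, other limits for the lowest value, both flanking genes and each autosome left out. Python 3.11.15, numpy 2.4.6, pandas 2.3.3, scipy 1.17.1, numba 0.67.0 and matplotlib 3.10.9 were used.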

Additional observations from a re-analysis of the deposited data

How the results depend on the processing

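No paired analysis was possible because the table holds 1 mean per group, and for the same reason no pool could be left out. Of the summary values under the alternatives, 83 stayed within their counting interval, or within 1.5 times for numbers, 25 moved, and none changed direction. These counts leave out the weighting by bins. Weighted by read level, other DMRs were 71.9% (higher group) or 72.2% (all libraries) higher in MMS, above the 70.5% of deserts. Weighted by CpG content, width and soft-masked share they were 63.7%, 61.8% and 62.3%. With a distance of 100 kb there were 1753 DMRs, 67.6% higher in MMS, a median soft-masked share of 26.4% and 2.94 DMRs per Mb. With 500 kb there were 320, with a median difference of 3.30, 0.976 CpG per 100 bp, 43.7% masked, 1.69 per Mb and control at its lowest value in 51.2%. With a width of at least 300 bp 663 DMRs were left, with a median width of 662 bp. With a difference of at least 2, 82.4% were higher in MMS, the median difference was 3.39 and control was at its lowest value in 54.5%. With a higher group mean of at least 4, 601 DMRs were left, 53.4% of them higher in MMS (other autosomal DMRs 48.4%), with a median difference of 1.59, a width of 517 bp, 24.9% masked and control at its lowest value in 20.3%. That value was 49.8% when counted within 1 of the lowest. The masked share was 17.2% without DMRs masked over 50%. Alternatives chosen after seeing the data left out immunoglobulin and T cell receptor regions, weighted other DMRs by bins, or left out DMRs with a 100-mer found elsewhere, which gave a median width of 398 bp and 25.6% masked. Filters on the DMRs alone give no density, so none was computed there. With both flanking genes counted, the lists held 140 (developmental transcription factors), 206 (adhesion), 39 (axon guidance), 68 (channels and receptors) and 14 (hypothalamic peptides) DMRs, and 11 of the 14 were higher in MMS. Where a group is at its lowest value, the difference depends on that value.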

Other observations

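Annotated genes other than protein-coding genes, mostly pseudogenes, were touched by 21 gene desert DMRs, 8 of them in processed pseudogenes. The long transcribed pseudogene Dcdc5 held 2 with opposite directions, at 4.08 in control and -0.24 in MMS and at -0.17 and 3.90. A DMR in the pseudogene Gm7135 had -0.17 in control and 4.94 in MMS, and a DMR touching the T cell receptor segment Trav18 had 5.43 and 4.28. These genes were chosen after their values were seen.

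A further 140 autosomal DMRs lay over 200 kb from any protein-coding gene but had their centre in a lncRNA gene, and 86 of them were higher in MMS, where all gene desert DMRs had 70.5%. On the sex chromosomes 11 DMRs met the same position rule, 10 of them on X, and 10 of the 11 were higher in MMS, as were 96 of all 104 DMRs on these chromosomes.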
